A study of Mus musculus with 31 samples.

Results

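Microglia are the resident macrophages of the brain, and 9 genes that mark them were followed here in bulk mouse brain: Cx3cr1, P2ry12, Tmem119, Csf1r, C1qa, C1qb, C1qc, Aif1 and Trem2. The genes were taken by symbol from a table of 48795 genes, and all 9 were found and passed the filter on low counts that left 19529 genes for testing. They were compared between 13 brain libraries labelled control and 18 labelled deltamethrin, an insecticide of the pyrethroid class, which hold nerve sodium channels open. The series title describes the exposure as developmental and names changes of molecular pathways in the brain as its subject. The labels give the tissue and the agent only; strain, genotype, age, dose and time of collection are not given in the sources used here. They do not say that the libraries come from separate animals, so p-values measure the spread between these libraries.

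Microglia enter the brain early in development and depend on the receptor Csf1r for survival, through its ligands Csf1 and Il34. They read neuronal signals through Cx3cr1, the receptor for the neuronal chemokine Cx3cl1, and through P2ry12, a purine receptor that steers their processes toward released nucleotides. C1qa, C1qb and C1qc encode the chains of C1q, which starts the classical complement cascade and tags synapses for removal. Trem2 is a lipid-sensing receptor that signals through the adaptor Tyrobp, Tmem119 is a surface protein of homeostatic microglia, and Aif1 encodes Iba1, an actin-binding calcium sensor widely used to stain these cells.

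The C1q genes lie side by side on the minus strand of chromosome 4 (GENCODE M21, GRCm38), C1qb at 136880129 to 136886187, C1qc at 136889804 to 136893065 and C1qa at 136895917 to 136898803. Trem2 (chromosome 17, 48346401 to 48354147, plus strand) and Aif1 (chromosome 17, 35170991 to 35176068, minus strand) share a chromosome. Cx3cr1 (chromosome 9, 119901616 to 120069879), P2ry12 (chromosome 3, 59216272 to 59262871) and Tmem119 (chromosome 5, 113793729 to 113800516) are each on the minus strand of a chromosome of their own. All 9 members are protein coding.

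Promoters from RefSeq (GRCm38.p6) were matched for 6 of the 9 genes, and those of C1qb, C1qc and Trem2 are shown because the levels of these 3 genes were correlated across libraries. Each is written 5′ to 3′ on the gene's strand and ends at or before the start site, leaving out any base in a GENCODE exon. Capitals mark the letters GAGGAAG or AGGAAGT on either strand, which contain the core bound by ETS factors, among them PU.1 (Spi1), a regulator of macrophage genes. The windows are chr4:136886201-136886450 for C1qb, chr4:136893066-136893164 for C1qc and chr17:48346151-48346400 for Trem2.
C1qb: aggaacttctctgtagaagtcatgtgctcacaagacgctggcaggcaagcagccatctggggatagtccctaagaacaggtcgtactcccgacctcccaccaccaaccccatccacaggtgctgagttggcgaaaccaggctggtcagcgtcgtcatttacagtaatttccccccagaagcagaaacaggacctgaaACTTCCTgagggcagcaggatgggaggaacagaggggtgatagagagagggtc
C1qc: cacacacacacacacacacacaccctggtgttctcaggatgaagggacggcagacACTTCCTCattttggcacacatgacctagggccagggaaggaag
Trem2: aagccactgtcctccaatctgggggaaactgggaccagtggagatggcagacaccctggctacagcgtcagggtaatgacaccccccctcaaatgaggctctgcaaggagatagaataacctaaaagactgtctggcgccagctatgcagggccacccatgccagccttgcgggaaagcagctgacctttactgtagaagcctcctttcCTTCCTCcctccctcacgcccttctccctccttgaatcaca
In the 250 bases before the start, GAGGAAG was found in 2 of the 6 members (C1qc and Trem2) and in 10.6% of 32817 promoters. AGGAAGT was found in 3 of the 6 (C1qb, C1qc and P2ry12) and in 7.69% of promoters. The matches in C1qc overlap, and the windows of Cx3cr1 and Aif1 held neither motif. Each promoter shown held a match. Aif1, whose promoter is not shown, also correlated with C1qb (r = 0.506) and Trem2 (r = 0.596). Either motif was found in 4 of the 6 members and in 15.4% of promoters. A match gives letters only and shows no binding.

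Total counts ran from 17570311 (control replicate 2) to 38680621 (deltamethrin replicate 3), and each member had at least 83 counts in every library. Levels are in CPM, counts scaled to the TMM-adjusted library size. Log2 fold changes set deltamethrin over control and come from edgeR's quasi-likelihood test with Benjamini-Hochberg adjustment over all 19529 genes. Between 7.32% and 40.2% of a library's counts came from mt-Rnr1 and mt-Rnr2, the ribosomal RNAs of mitochondria, with medians of 12.9% in control and 14.8% in deltamethrin. Control replicate 2 stands apart, with the highest such share, the lowest total count and the lowest TMM factor (0.613).

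Markers of microglia were present in every library, and most markers of blood-borne white cells had too few counts to test. All 25 of the other microglia-enriched genes listed passed the filter. Of 9 monocyte and neutrophil markers 1 passed, Ly6c2, at up to 1.03 CPM, and S100a8, S100a9 and Ccr2 had at most 33, 44 and 13 counts in any library. Border-associated macrophages share several microglial genes; 6 of their 10 markers passed, with a summed level of 9.17 to 17.5 CPM in control and 8.67 to 20.3 in deltamethrin. The summed level of the 9 microglia identity genes was 159 to 225 CPM in control (median 199) and 177 to 225 in deltamethrin (median 196). In bulk tissue, fewer microglia and less of a transcript in each microglia cannot be told apart.

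Per length, the C1q chains were the most abundant of the 9 genes. Levels per kilobase used the longest principal transcript of each gene and are means over the 31 libraries. C1qb stood at 28.5 ± 3.56 CPM per kilobase (SD, n = 31), C1qa at 26.2 ± 3.79 and C1qc at 16.3 ± 2.005. C1qc was below C1qa in 31 of 31 libraries. Csf1r followed at 9.68 ± 2.38, P2ry12 at 8.06 ± 1.30 and Trem2 at 7.86 ± 1.21 CPM per kilobase. P2ry12 was above Trem2 in 15 of 31 libraries, so these neighbours in the order did not differ beyond their spread. Tmem119 was at 6.86 ± 0.799, Cx3cr1 at 5.78 ± 1.16 and Aif1 at 5.42 ± 1.72 CPM per kilobase. Cx3cr1 was above Aif1 in 19 of 31 libraries. The order rests on annotated transcript lengths, and the isoforms used in these libraries were not measured.

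Between the groups, 0 of the 9 members passed an adjusted p-value of 0.05, as did 0% of all genes tested. At an unadjusted p-value under 0.05 there was 1 member of 9, Tmem119, against 4.37% of all genes in either direction and 2.37% with a lower level in deltamethrin. A negative fold change was found for 6 members and a positive one for 3, against 49.5% negative among all genes. The median log2 fold change was -0.067 over the members and 0.0014 over all genes tested. In CPM the ranges of the groups overlapped for each of the 9 genes, and ranges that do not overlap were found for 0% of all genes.

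**Figure D1:**
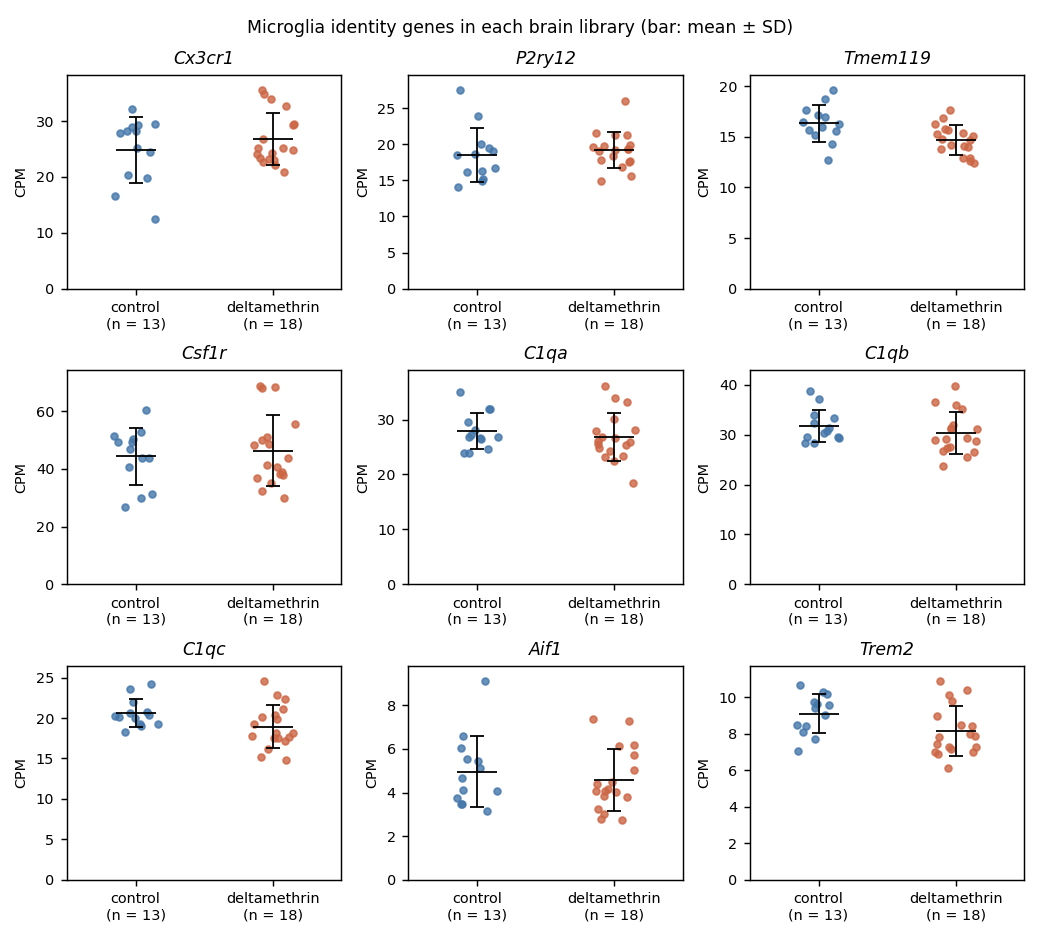
CPM of each microglia identity gene in each library, control (n = 13) and deltamethrin (n = 18), with bars at the mean and SD. The groups overlap in every panel, and the single lowest Cx3cr1 value, 12.4 CPM, is control replicate 2.

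Of the complement chains, C1qc had the most negative fold change. C1qc ran from 18.3 CPM to 24.2 in control (median 20.2) and from 14.8 to 24.5 in deltamethrin (median 18.1). The lowest values were deltamethrin libraries, but the highest was one as well, and 13 of 18 lay below the control median. The log2 fold change of C1qc was -0.12 ± 0.063 (SE), at an unadjusted p of 0.0621 and an adjusted p of 0.813 (edgeR). C1qb ran from 28.4 to 38.7 CPM in control (median 30.7) and from 23.7 to 39.8 in deltamethrin (median 29.3), a log2 fold change of -0.067 ± 0.066. C1qa ran from 23.9 to 35.1 CPM in control (median 26.8) and from 18.4 to 36.1 in deltamethrin (median 26.0), a log2 fold change of -0.060 ± 0.075. For both chains deltamethrin replicate 1 was lowest and deltamethrin replicate 10 highest of all libraries, so the deltamethrin group spanned the control group. The adjusted p-values were 0.834 for C1qb and 0.861 for C1qa (edgeR). With surrogate variables in the model the sign for C1qa turned (0.018).

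Among the receptors and surface proteins, Trem2 and Tmem119 had the most negative fold changes and Cx3cr1 the most positive. Tmem119 ran from 12.7 to 19.6 CPM in control (median 16.2) and from 12.4 to 17.7 in deltamethrin (median 14.8), and 16 of 18 deltamethrin libraries lay below the control median. Its mean was 16.3 ± 1.80 CPM in control and 14.7 ± 1.48 in deltamethrin (SD, n = 13 and 18). The log2 fold change was -0.15 ± 0.058, a fold of 0.898 with a 95% interval of 0.828 to 0.975, with an unadjusted p of 0.0117 and an adjusted p of 0.813 (edgeR). With each of the 31 libraries left out in turn the unadjusted p stayed between 0.00233 and 0.0306, and without scaling factors it was 0.186. Trem2 ran from 7.07 to 10.7 CPM in control (median 9.41) and from 6.12 to 10.9 in deltamethrin (median 7.85), and 14 of 18 deltamethrin libraries lay below the control median. Its log2 fold change was -0.16 ± 0.078, with an unadjusted p of 0.0505 and an adjusted p of 0.813 (edgeR).

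Cx3cr1 ran from 12.4 to 32.2 CPM in control (median 27.9) and from 20.96 to 35.5 in deltamethrin (median 24.98). The means and medians of this gene point opposite ways: 12 of 18 deltamethrin libraries lay below the control median, while the log2 fold change was 0.10 ± 0.10. The lowest control value was replicate 2, and without that library the log2 fold change was 0.044. Csf1r ran from 26.7 to 60.4 CPM in control (median 46.9) and from 30.0 to 68.8 in deltamethrin (median 42.5), with a log2 fold change of 0.061 ± 0.12. P2ry12 ran from 14.1 to 27.5 CPM in control (median 18.5) and from 14.95 to 26.0 in deltamethrin (median 19.2), with a log2 fold change of 0.051 ± 0.081. Adjusted p-values of these 3 receptors were 0.836, 0.914 and 0.891 (edgeR). Without control replicate 2 the log2 fold change was 0.012 for Csf1r and 0.027 for P2ry12. The sign for Csf1r turned with surrogate variables in the model (-0.095).

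Aif1 was the least abundant member in CPM and the most variable. It ran from 3.15 to 9.10 CPM in control (median 4.66) and from 2.76 to 7.39 in deltamethrin (median 4.14), with a log2 fold change of -0.096 ± 0.15 and an adjusted p of 0.888 (edgeR). Its highest value, 9.10 CPM, was control replicate 2, the library with the lowest Cx3cr1. Without that library the log2 fold change of Aif1 was -0.011, and with surrogate variables in the model its sign turned, to a log2 fold change of 0.10.

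**Figure D2:**
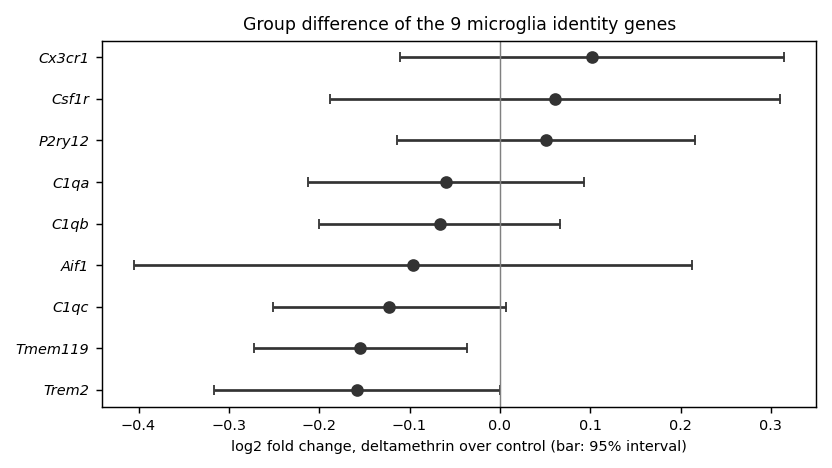
Log2 fold change of deltamethrin over control for the 9 genes, with 95% intervals from edgeR. Tmem119 is the 1 gene whose interval leaves out 0, before any adjustment over genes.

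The intervals give what these libraries could show. For C1qb the 95% interval of the fold was 0.871 to 1.05 and for Tmem119 0.828 to 0.975. For Aif1 it was 0.756 to 1.16 and for Csf1r 0.878 to 1.24, so these genes were measured less precisely. The biological coefficient of variation was 10.7% for Tmem119 (rank 7.51% from the lowest of all genes tested), 12.1% to 14.5% for the C1q genes, 14.4% for Trem2 and 15.4% for P2ry12. It was 19.9% for Cx3cr1, 23.5% for Csf1r and 27.9% for Aif1, against a median of 18.3% over all genes.

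The 9 genes did not vary as one block across libraries. Over the 31 libraries the C1q chains varied together, and Trem2 correlated positively with all 3 of them. Aif1 correlated positively with C1qa and C1qb, and Tmem119 with C1qc and Trem2. Cx3cr1 and Csf1r correlated with each other and negatively with C1qa and Trem2. Of 36 pairs, 13 had a positive and 7 a negative Pearson r with an adjusted permutation p under 0.05 (100000 resamples, adjusted over the 36 pairs). Among all pairs of tested genes, 17.2% had an r of at least 0.396, the smallest positive r counted, and 15.2% an r of -0.425 or below, the negative one nearest 0, so correlations of this size were common in these libraries. All levels of a library share its depth and composition.

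C1qa and C1qb had the closest relation, with r = 0.886 and rho = 0.816 (permutation p = 1e-05 for both, which is the smallest that 100000 resamples allow; 7.2e-05 after adjustment of r). The r was 0.837 without the 2 libraries farthest from the median of C1qa, 0.814 within control and 0.908 within deltamethrin. C1qb and C1qc had r = 0.818 and rho = 0.773 (each permutation p = 1e-05), 0.786 with the 2 farthest left out, 0.725 in control alone and 0.847 in deltamethrin alone. C1qa and Trem2 had r = 0.752 and rho = 0.763 (each permutation p = 1e-05), with 0.728 without the 2 farthest, 0.643 within control and 0.798 within deltamethrin. The r of these 3 pairs was positive in each group. Cx3cr1 and Csf1r had r = 0.832 and rho = 0.815 (each permutation p = 1e-05), with 0.802 without the 2 farthest, 0.848 within control and 0.883 within deltamethrin.

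The relations between the sets were negative and less steady. Csf1r and Trem2 had r = -0.585 (permutation p = 0.00064, adjusted 0.00192) and rho = -0.567 (permutation p = 0.00119), with -0.542 without the 2 farthest libraries. That r was -0.822 within deltamethrin but -0.187 within control, so it was weak in the control group. Cx3cr1 and Aif1 had r = -0.663 (permutation p = 8e-05, adjusted 0.00048) and rho = -0.640 (permutation p = 0.00017), with -0.560 without the 2 farthest, -0.687 within control and -0.663 within deltamethrin. With the mitochondrial rRNA share taken out of each gene by regression, r of this pair was -0.068 (permutation p = 0.716) and rho -0.042. That residual r was 0.095 without the 2 farthest libraries. Csf1r and C1qa had r = -0.563 (permutation p = 0.00097, adjusted 0.00269) and rho = -0.512 (permutation p = 0.00343), with -0.587 without the 2 farthest, -0.342 within control and -0.676 within deltamethrin. The relations of Csf1r to Trem2 and C1qa depended on the scaling: without scaling factors r was -0.016 for Csf1r and Trem2 and 0.040 for Csf1r and C1qa, while the C1qa and C1qb pair kept r = 0.905 and the Cx3cr1 and Csf1r pair 0.903.

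The mitochondrial rRNA share of a library correlated with the levels of many genes, and with those of members about as often as with genes in general. Of the 9 members, 3 had a positive and 2 a negative r between log2 CPM and the log2 share with a permutation p under 0.05 after adjustment over all genes tested, against 27.9% and 28.6% of all genes. Aif1 had r = 0.848 (permutation p = 1e-05, adjusted 4.59e-05) and rho = 0.817 (permutation p = 1e-05), 0.824 with the 2 farthest left out, 0.884 in control alone and 0.829 in deltamethrin alone. Cx3cr1 had r = -0.754 (permutation p = 1e-05, adjusted 4.59e-05) and rho = -0.771 (permutation p = 2e-05), with -0.686 without the 2 farthest, -0.717 within control and -0.832 within deltamethrin. Csf1r had r = -0.634 (permutation p = 0.00011, adjusted 0.000367) and rho = -0.590 (permutation p = 0.00071), with -0.718 without the 2 farthest, -0.488 within control and -0.776 within deltamethrin. These 3 genes kept their direction within both groups.

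For C1qa and Trem2 r with the share was near 0 within control and positive within deltamethrin. The control libraries include replicate 2, whose share of 40.2% was far above the control median of 12.9%. The r within control without that library was not computed. C1qa had r = 0.457 over all libraries (permutation p = 0.00954, adjusted 0.0193) and rho = 0.511 (permutation p = 0.00367), with 0.630 without the 2 farthest, 0.775 within deltamethrin and 0.024 within control. Trem2 had r = 0.419 (permutation p = 0.0197, adjusted 0.0364) and rho = 0.419 (permutation p = 0.0202), with 0.496 without the 2 farthest, 0.748 within deltamethrin and 0.00082 within control. Whether the groups differ in this relation was not tested. P2ry12 (r = 0.382, permutation p = 0.0345, adjusted 0.0595, rho = 0.499 with permutation p = 0.00494), Tmem119 (r = -0.337), C1qb (0.324) and C1qc (0.205) did not pass for r. With the 2 farthest libraries left out, r was 0.563 for P2ry12, -0.203 for Tmem119, 0.508 for C1qb and 0.280 for C1qc. Without scaling factors r of C1qa was -0.145 and that of Trem2 -0.140, so their direction depended on the scaling, while Cx3cr1, Csf1r and Aif1 kept theirs.

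**Figure D3:**
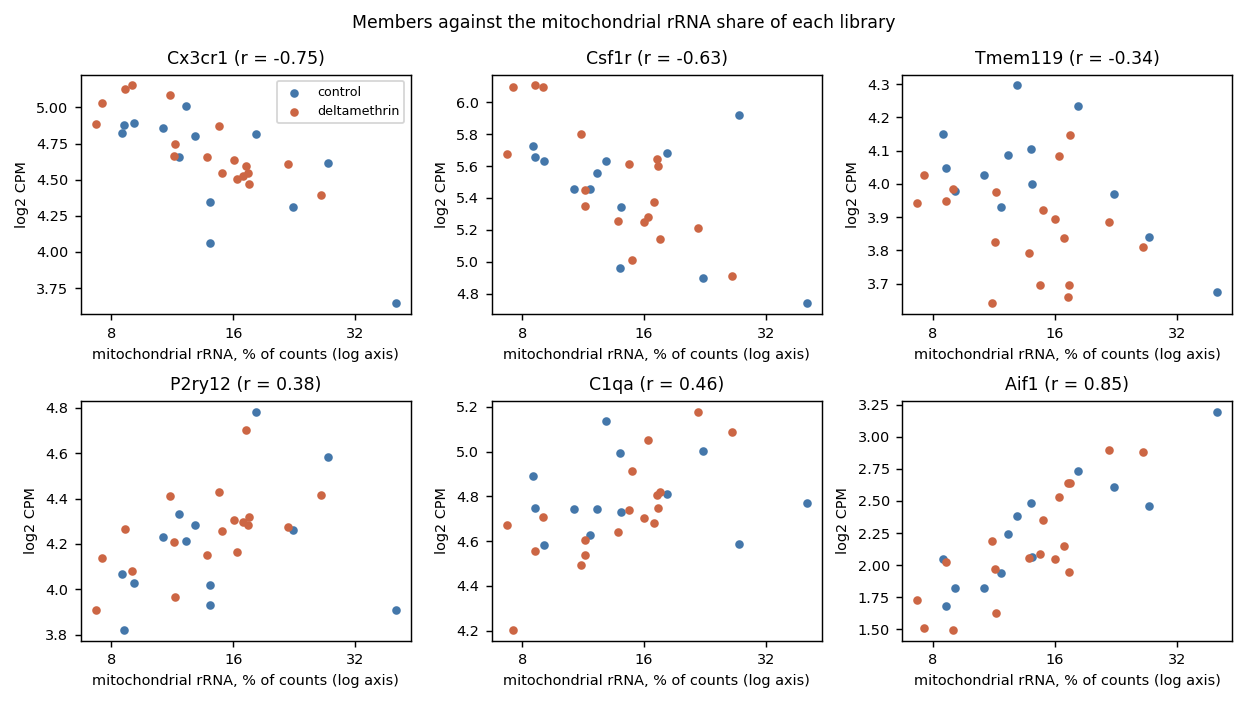
Log2 CPM of 6 members against the percentage of a library's counts from mt-Rnr1 and mt-Rnr2 (log axis), 1 point per library. Cx3cr1 and Csf1r lie lower and Aif1 higher in libraries with a large share; the point at 40.2% is control replicate 2.

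The share also ran with transcript length over all genes, and the shortest and longest members had an r of the sign of their bin's median. Protein-coding genes numbering 15099 were put in 5 bins by length. In the bin with the shortest principal transcripts (51 to 1730 bases) the median r with the share was 0.520, and in the longest (4971 to 123179 bases) it was -0.496 (Spearman rho of length with r across genes -0.505, genes not being independent replicates). Aif1 (875 bases), C1qa (1040), C1qb (1088), Trem2 (1088) and C1qc (1203) are in the shortest bin and had a positive r. Cx3cr1 (4493 bases) and Csf1r (4701) are in the bin of 3528 to 4971 bases, whose median r was -0.392. Tmem119 (2242 bases, r = -0.337) and P2ry12 (2344 bases, r = 0.382) lie in the bin of 1730 to 2587 bases, whose median r was 0.080. The part of length or RNA state in the members' relations was not tested.

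With the share taken out of each gene by regression, P2ry12 correlated with Cx3cr1 and Csf1r, and Tmem119 with the C1q chains and Trem2. Tmem119 had already passed before the regression with C1qc (r = 0.504, adjusted permutation p = 0.00977) and Trem2 (adjusted permutation p = 0.0205). For P2ry12 and Cx3cr1 r went from 0.141 (permutation p = 0.447, rho = -0.071) to 0.707 (permutation p = 2e-05, adjusted 0.00012, rho = 0.685), and was 0.606 with the 2 farthest left out, 0.786 in control alone and 0.466 in deltamethrin alone. For P2ry12 and Csf1r it went from 0.166 to 0.570 (permutation p = 0.00118, adjusted 0.00386, rho = 0.510), with 0.577 without the 2 farthest, 0.622 within control and 0.506 within deltamethrin. For Tmem119 and Trem2 r went from 0.457 to 0.700 (permutation p = 2e-05, adjusted 0.00012, rho = 0.720), with 0.693 without the 2 farthest, 0.635 within control and 0.648 within deltamethrin. Positive pairs passing the threshold numbered 16 and negative ones 1, the latter Csf1r with Trem2 (r = -0.455, permutation p = 0.00899, adjusted 0.0202, rho = -0.386, with -0.322 within control and -0.639 within deltamethrin). Of the 20 pairs counted before, 13 also passed after the regression, each with the same sign. Over all gene pairs 8.71% had a residual r of at least 0.461 and 8.39% one of -0.455 or below, the limits for members here.

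**Figure D4:**
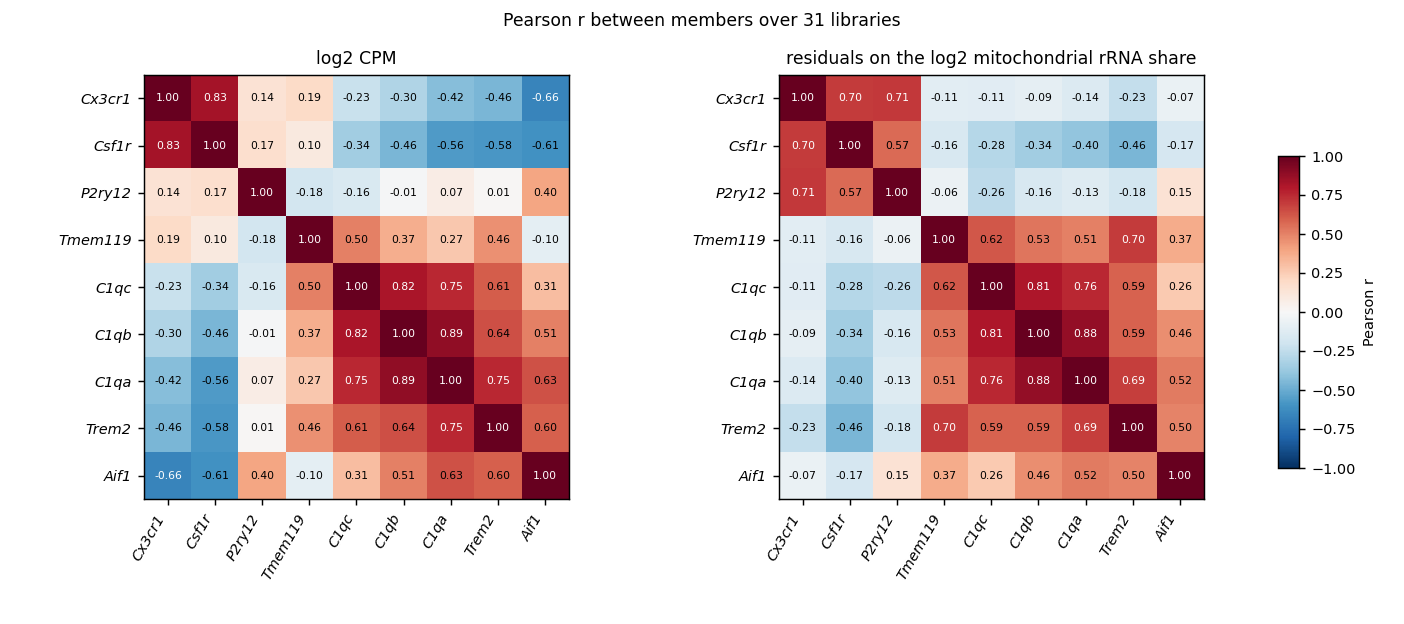
Pearson r for each pair of members over the 31 libraries, from log2 CPM (left) and from residuals on the log2 mitochondrial rRNA share (right). On the right, Cx3cr1, Csf1r and P2ry12 have r of 0.570 to 0.707 with one another, and Tmem119 lies with the C1q genes and Trem2.

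The genes whose pattern was most like the mean of the 9 included 1 from the microglia lists. After centring within groups, the 10 with the highest r over the 31 libraries were Hs3st4 (0.756), Klf16 (0.755), Rasgef1a, Meis2, Gng7, Rnase4, Siglech (0.668), Glod4, Hmgb2 and Sord (0.635). Siglech, a microglial lectin receptor, was the 1 gene of these from the 25 other microglia-enriched genes. Genes outside that list were not sorted by cell type, so the count does not show that they are absent from microglia. With the share regressed out and no centring within groups, 0 of the 10 closest genes came from that list. For single members the closest gene was Rad21 for Cx3cr1 (r = 0.904), Itih5 for Csf1r (0.913), Ube2d3 for P2ry12 (0.789), Icam5 for Tmem119 (0.804), Chmp1a for C1qa (0.887) and C1qb (0.849), Nudt9 for C1qc (0.826), H3f3a for Trem2 (0.847) and Tmeff1 for Aif1 (0.952). With the share regressed out and no centring within groups, the closest gene was another one for each of the 9 members. It was Gnai3 for Cx3cr1 (0.781), Pros1 for Csf1r (0.862), Armcx3 for P2ry12 (0.847) and Tmem158 for Tmem119 (0.791). Cst3 was closest to C1qa (0.896) and C1qb (0.837), Lamtor2 to C1qc (0.847), Ddrgk1 to Trem2 (0.831) and Klf16 to Aif1 (0.803). These values are a description over libraries that share depth and composition. Of the 25 other microglia-enriched genes, 10 had a positive r with Csf1r and a negative one with C1qa. The reverse was found for 8, and 7 had a positive r with both. With the share regressed out these numbers were 7, 8 and 10. Csf1r and C1qa themselves had r = -0.563, and the same count over all genes was not made. Among examples chosen after their values were seen, Tyrobp (r = -0.684 with Csf1r and 0.662 with C1qa) went with C1qa, and Itgam (0.628 and -0.458) and Sall1 (0.669 and -0.457) with Csf1r. With the share regressed out the values were -0.371 and 0.563 for Tyrobp, 0.697 and -0.443 for Itgam and 0.332 and -0.158 for Sall1.

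The partners of the member receptors showed no gene past the threshold. Of 16 ligands, adaptors and effectors, 0 had an unadjusted p-value under 0.05 (edgeR), against 4.37% of all genes tested. A count of 0 in a list this short is near that share and gives no result about the partners. Their fold changes were positive for 10 and negative for 6, with a median of 0.019, against 49.5% negative among all genes. Cx3cl1, the ligand of Cx3cr1, had a log2 fold change of 0.019 ± 0.13. Of the Csf1r ligands, Csf1 had 0.082 ± 0.082 and Il34 -0.11 ± 0.060. Tyrobp, the adaptor of Trem2, had -0.23 ± 0.16, and Apoe, a lipid carrier that binds Trem2, had -0.038 ± 0.088. Among the transcription factors of the lineage, Spi1 had -0.12 ± 0.085 and Irf8 0.018 ± 0.078. Downstream of C1q, 17 of 18 complement genes were tested and 0 had an unadjusted p-value under 0.05, likewise near the share over all genes. C1ra was at 0.014 ± 0.14, C4b at 0.055 ± 0.12 and C3 at 0.27 ± 0.23.

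Among genes tied to other microglial states, 0 passed after adjustment over all genes (edgeR). At an unadjusted p-value under 0.05 the counts of each list stand beside 4.37% of all genes tested, 2% with a positive and 2.37% with a negative fold change. Of the 25 other microglia-enriched genes 1 was under 0.05, Lyn, a Src-family kinase, at 7.13 ± 1.13 CPM in control and 8.32 ± 1.54 in deltamethrin (SD, n = 13 and 18), a log2 fold change of 0.22 ± 0.091. Fold changes of this list were positive for 16 and negative for 9, with a median of 0.018. Of 16 disease-associated microglia genes tested, 2 were under 0.05 with a positive and 1 with a negative fold change. Ccl6, a chemokine, had 1.29 ± 0.363 CPM in control and 0.931 ± 0.264 in deltamethrin, a log2 fold change of -0.45 ± 0.15, with 17 of 18 deltamethrin libraries below the control median. Gpnmb, a lysosomal glycoprotein, had 0.45 ± 0.19, and the growth factor Igf1 had 0.29 ± 0.12. The level of Gpnmb was low, with 9 to 61 counts per library. Of 18 inflammatory mediators 9 had too few counts to test. Il1b had at most 13 counts in any library, Tnf 4 and Il6 6. Of the 9 tested, 1 was under 0.05, Nos2, with a log2 fold change of 0.47 ± 0.23. Its level was low, with 2 to 27 counts per library and means of 0.285 CPM in control and 0.409 in deltamethrin. Each of these 5 genes had an adjusted p of 0.813 (edgeR).

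Marker lists of other cell types had medians on both sides of 0, and 49.5% of all genes tested had a negative fold change. Fold changes were negative for 4 of 6 border-associated macrophage markers tested (median -0.096), 5 of 5 erythrocyte genes (median -0.29) and 6 of 6 choroid plexus markers (median -0.19). They were positive for 7 of 7 astrocyte markers (median 0.13), 5 of 5 oligodendrocyte precursor markers (0.13) and 6 of 8 endothelial and pericyte markers (0.10). Neuronal markers had a median of 0.065 (5 of 8 positive) and oligodendrocyte markers -0.0078 (3 of 7 positive). An unadjusted p-value under 0.05 was found for 1 of 8 endothelial and pericyte markers, Cldn5 (log2 fold change 0.21 ± 0.067). It was also found for 1 of 8 neuronal markers, Gad2 (0.23 ± 0.11), and 2 of 6 choroid plexus markers, Ttr (-0.46 ± 0.21) and Folr1 (-0.49 ± 0.20). Cd4 (-0.31 ± 0.14) was under 0.05 as well. The other cell type lists had 0, against 4.37% of all genes tested. Each gene named had an adjusted p of 0.813 (edgeR). Cd4 was the 1 lymphocyte marker of 8 with enough counts to test, and Cd3e had at most 6 counts in any library. The part of tissue makeup in the members' values was not tested.

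**Figure D5:**
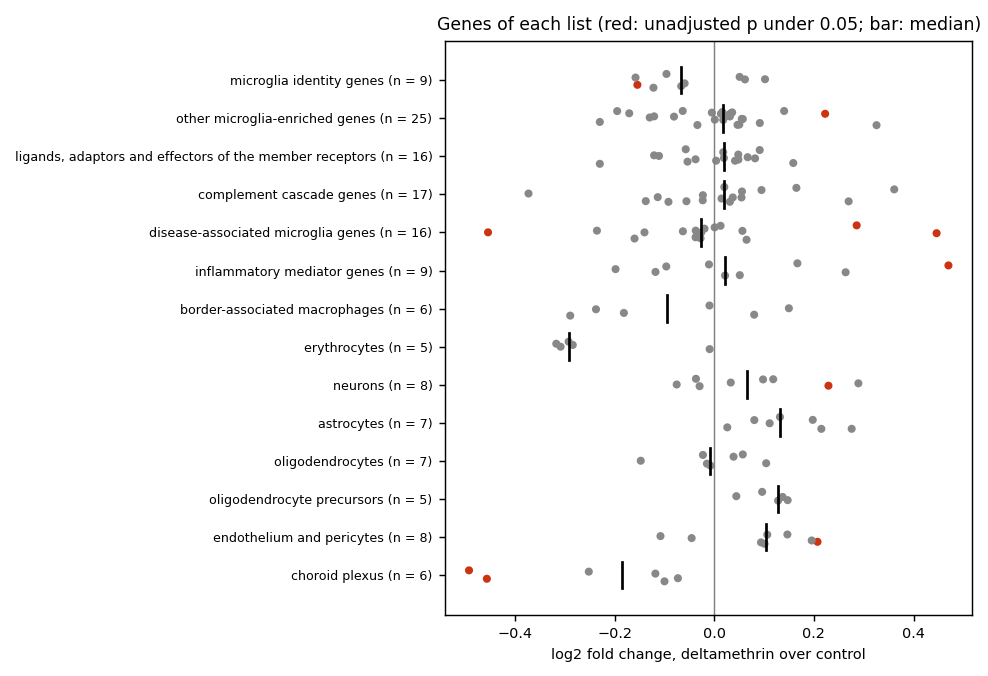
Log2 fold change of deltamethrin over control for each tested gene of the lists with more than 1 tested gene, with bars at the list medians. The microglia identity genes (median -0.067) spread on both sides of 0, as do the other microglia-enriched genes (median 0.018).

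Some reads of 3 members could belong to neighbours, because the use of strand in counting is not given in the sources used here. Csf1r (chromosome 18, 61100598 to 61132149, plus strand) shares 873 exon bases with Hmgxb3 on the opposite strand, the member with the largest overlap. Hmgxb3 stood at 50.5 ± 4.83 CPM in control and 47.5 ± 3.52 in deltamethrin (SD, n = 13 and 18), and its r with Csf1r over the 31 libraries was -0.097. Cx3cr1 shares 78 exon bases with Gm33858, and P2ry12, which lies inside Med12l, shares 9 with it.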

How the data were processed

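Total RNA from mouse brain was sequenced in 31 libraries, 13 control and 18 deltamethrin by the agent label. The authors deposited unnormalized whole-number counts for each Ensembl gene. The submitters' processing notes name Trimmomatic, HISAT2, SAMtools, MultiQC and the build GRCm38; the counting tool, annotation and use of strand are not given in the sources used here. Columns were matched to samples by title, and 48349 of 48795 gene IDs were found in GENCODE M21.

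Genes were filtered with filterByExpr (minimum count 10, minimum total 15), scaled by TMM and compared with the quasi-likelihood F-test of edgeR 4.0.16 in R 4.3.3 (robust=TRUE, no covariates). Standard errors were obtained from the fold change and the square root of F; intervals are 95%. Log2 CPM has a prior count of 2. Correlations used two-sided permutation tests with numpy 2.4.6. Alternatives used DESeq2 1.42.0, limma 3.58.1 voom and sva 3.50.0. The edgeR fit and the permutation p-values were tested on simulated data. The counts simulated for edgeR held no axis like the mitochondrial rRNA share. The members and gene lists were chosen with earlier results of these data known. Named were all members, up to 3 genes per list with an unadjusted p under 0.05, the 10 genes most like the members' mean and the closest gene to each member; ligands, adaptors and other genes were named for their role. Replicates were numbered in accession order and pair nothing. Precision is limited by the spread between libraries as well as by their depth, and intervals cover that spread.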

Additional observations from a re-analysis of the deposited data

How the results depend on the processing

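Of the members, 0 had an adjusted p-value under 0.05 in the 10 other settings tried and whichever of the 31 libraries was left out, and likewise 0 of all genes. At an unadjusted p-value under 0.05 there was 1 member, against 0 without scaling factors, 3 with limma voom and 2 with the mitochondrial rRNA share as a covariate, and 1 to 3 when 1 library was left out. It was 3 (Tmem119, Trem2 and C1qc) without deltamethrin replicate 8, 9 or 10. It was 2 without control replicate 2, 4, 7, 9, 11 or 12 or deltamethrin replicate 5, 7 or 14, with Trem2 or C1qc beside Tmem119. All genes under 0.05 numbered 853, against 1948 with no count filter, 1796 with the share as a covariate, 1300 with 4 surrogate variables and 526 to 1389 when 1 library was left out, the counts beyond 1.5 times coming without control replicate 4, 7, 10 or 11 or deltamethrin replicate 3, 8, 9 or 10. With surrogate variables the log2 fold change was -0.095 for Csf1r, 0.018 for C1qa and 0.10 for Aif1. The members' median stayed between -0.073 and -0.0075 in other settings and between -0.093 and -0.042 when 1 library was left out.

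Negative pairs numbered 7, against 1 after regression on the share and 2 without scaling factors. Without scaling factors r was 0.231 for Cx3cr1 and C1qa, 0.169 for Cx3cr1 and Trem2, 0.040 for Csf1r and C1qa and 0.206 for Csf1r and C1qb. Without factors r with the share was -0.157 for P2ry12, -0.145 for C1qa, -0.325 for C1qb, -0.416 for C1qc and -0.140 for Trem2. For correlations, RLE and upper quartile factors, and for pairs also no factors, were chosen after seeing the data. RLE and upper quartile factors turned no sign; with upper quartile factors P2ry12 (0.457) and C1qb (0.431) also passed with the share. Tmem119 passed without factors (-0.701). The cause of these changes was not tested. The 10 genes most like the members' mean shared 5 with those found after regression on the share, which was done without centring within groups. No paired analysis was possible because samples were numbered in accession order, which ties no control library to a deltamethrin one.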
